A study of Mus musculus with 8 samples.

Results

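Circular RNAs (circRNAs) of 6 genes that act in vesicle trafficking were described in mouse kidneys after injury. The rows were all those listed under the host names Psd3, Dennd1b, Rab3ip, Snx29, Reps1 and Tbck, 28 of 6315 circRNAs in the table. Psd3 had 7 rows, Dennd1b 9, Rab3ip 1, Snx29 3, Reps1 2 and Tbck 6. The hosts had been picked, with the counts of all 3 groups in view, as genes whose circular isoforms seemed to change apart from each other. Their changes below are therefore a description of the values that chose them, and the adjusted p-values are part of that description.

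The study holds 8 libraries of total RNA from kidneys of C57BL/6L mice aged 8 to 10 weeks. The labels give 3 libraries to unilateral ureteral obstruction (UUO), a model of fibrosis in which urine outflow from a single kidney is blocked, and 2 to a group called acute-chronic (AC). The other 3 are controls, titled WT and described in the design text as sham-operated. The design text names the injuries as I/R, an abbreviation used for ischaemia and reperfusion, and UUO, with harvest 5 days later. Titles of AC and UUO libraries carry the same day, whether AC is the I/R group is not stated, and no allele or drug is named for any group. No label ties a library to an animal of its own, and p-values here rest on the spread between libraries, which may be technical.

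A circRNA is a closed loop that forms when a downstream splice site of a transcript is joined to an upstream one, and a single gene can give several loops from different exons. The 6 host proteins steer membrane traffic. Psd3 is an exchange factor that loads the small GTPase Arf6 with GTP, Dennd1b is a DENN-domain exchange factor for Rab GTPases, and Rab3ip (Rabin8) activates Rab8 and is known for its role in building cilia. Snx29 belongs to the sorting nexins, which bind membrane lipids. Reps1 is an EH-domain adaptor that links Ral signalling to receptor endocytosis. Tbck carries the TBC domain typical of proteins that switch Rabs off, beside a kinase-like domain. A change in a circRNA is no measure of the linear messenger RNA or of the protein, neither of which was analysed here.

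Total circRNA counts lay between 40865 and 65145 per library. In the fit of single loops 1 count was worth between 18.9 and 29.2 CPM, the normalised count scaled to a common library total. CPM of host sums came from a separate fit with its own library totals, so they are not on the scale of the loops. The 28 rows together held between 1.13% and 1.20% of all counts in UUO libraries, between 1.08% and 1.22% in AC libraries and between 1.12% and 1.20% in control libraries. Of the 28 rows, 14 passed the filter on low counts, and these held 95.3% of the counts of the 6 hosts. A row such as Dennd1b mmu_circ_0008223 passed only through the group in which it was high. Few kidney markers have a circRNA row. Of 8 marker lists, those of the collecting duct, podocytes, fibroblasts and immune cells have none. Dcdc2a, the only one of 4 injured-tubule markers listed, was at 2665 to 2962 CPM of all circRNA counts in UUO, 1974 to 2080 in AC and 61.4 to 114 in control. Klhl3 and Wnk1, the listed 2 of 5 distal tubule markers, summed to 341 to 628 in UUO, 346 to 783 in AC and 1668 to 2241 in control. Lrp2, the only one of 7 proximal tubule markers listed, lay at 225 to 576 in UUO, 514 to 529 in AC and 205 to 1412 in control. Flt1, the only one of 5 endothelial markers listed, lay at 0 to 121, 0 to 122 and 76.8 to 114 in those groups. The part of cell makeup in the results was not tested, and in whole tissue fewer cells of a type and less RNA per cell cannot be told apart.

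Both abundant Psd3 loops were higher, and the main Snx29 loop was lower, in each injury than in control. A Dennd1b loop was detected in AC libraries alone, and no loop of Reps1 or Tbck passed in a comparison of all 8 libraries. Over the 6 hosts, 3 of 14 tested loops passed in UUO against control, 2 higher and 1 lower, where 4.35% of all 1471 tested circRNAs passed, 2.86% higher and 1.5% lower. In AC against control 4 of 14 passed, 3 higher and 1 lower, where 3.33% of all passed, 1.9% higher and 1.43% lower. The hosts were chosen on these comparisons, so nothing is read from the higher shares. The median log2 fold change of the 14 was -0.13 in UUO and -0.18 in AC, beside 0.016 and -0.015 for all tested circRNAs. The libraries of both groups did not overlap for 6 of 14 loops in UUO against control and 7 of 14 in AC against control, where 24.3% and 30.7% of all tested circRNAs did not. In UUO against AC 0 of 14 and 0.0% of all 1471 circRNAs passed in edgeR, with 3 of 14 and 82 of 1471 at an unadjusted p under 0.05. In that comparison DESeq2 called 2 of all circRNAs and limma-voom 0, and both called 0 of the 14. The libraries of UUO and AC did not overlap for 5 of 14 loops, where 24.3% of all did not.

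Psd3 gave the largest summed count of the 6 hosts, 1406 over the 8 libraries, and was the only host whose summed circRNAs rose in both injuries. Summed over its 7 rows, Psd3 averaged 5513 ± 385 CPM in UUO (SD, n = 3), 4389 ± 1380 CPM in AC (SD, n = 2) and 1677 ± 239 CPM in control (SD, n = 3). The fitted sum was 3.29-fold higher in UUO than in control (log2 fold change 1.72, SE 0.21, edgeR adjusted p = 3.39e-05) and 2.62-fold higher in AC than in control (1.39, SE 0.23, adjusted p = 0.00093). Of all 1185 host sums tested, 6.5% passed the adjusted threshold of 0.05 in UUO (3.71% higher, 2.78% lower) and 3.46% in AC (2.03% higher, 1.43% lower). Of the 6 hosts, Psd3 passed as higher in both, Snx29 as lower in both and Rab3ip as lower in UUO. The Psd3 sum did not pass in AC without AC replicate 2. Both comparisons use the same 3 control libraries.

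The most abundant Psd3 loop, mmu_circ_0001683, had counts of 137, 148 and 156 in UUO, 83 and 90 in AC, and 34, 46 and 33 in control. The 3 groups do not overlap in CPM: UUO libraries were highest, AC libraries in between and control libraries lowest. In UUO against AC the loop did not pass (log2 fold change 0.57, SE 0.26, edgeR adjusted p = 0.852). It averaged 3403 ± 111 CPM in UUO (SD, n = 3), 2290 ± 474 CPM in AC (SD, n = 2) and 818 ± 119 CPM in control (SD, n = 3). It rose 4.16-fold in UUO (log2 fold change 2.06, SE 0.24, edgeR adjusted p = 0.000112) and 2.79-fold in AC (1.48, SE 0.27, adjusted p = 0.00736). The UUO call held without any 1 of the 8 libraries, with adjusted p up to 0.00234. The AC call was lost without AC replicate 2 (adjusted p = 0.093) and without control replicate 3 (adjusted p = 0.0512).

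The next Psd3 loop, mmu_circ_0001682, had counts of 78, 103 and 85 in UUO, 67 and 104 in AC, and 37, 42 and 41 in control. All injured libraries lay above all controls, and the UUO and AC libraries overlapped. It rose 2.35-fold in UUO (log2 fold change 1.24, SE 0.29, edgeR adjusted p = 0.0263) and 2.63-fold in AC (1.39, SE 0.32, adjusted p = 0.022). The UUO call held in 3 of the 8 fits that left out 1 library: without AC replicate 1, AC replicate 2 or control replicate 1. The AC call was lost without AC replicate 2, where the log2 fold change was 0.83 (adjusted p = 0.382), and without control replicate 3 (adjusted p = 0.0866).

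**Figure D1:**
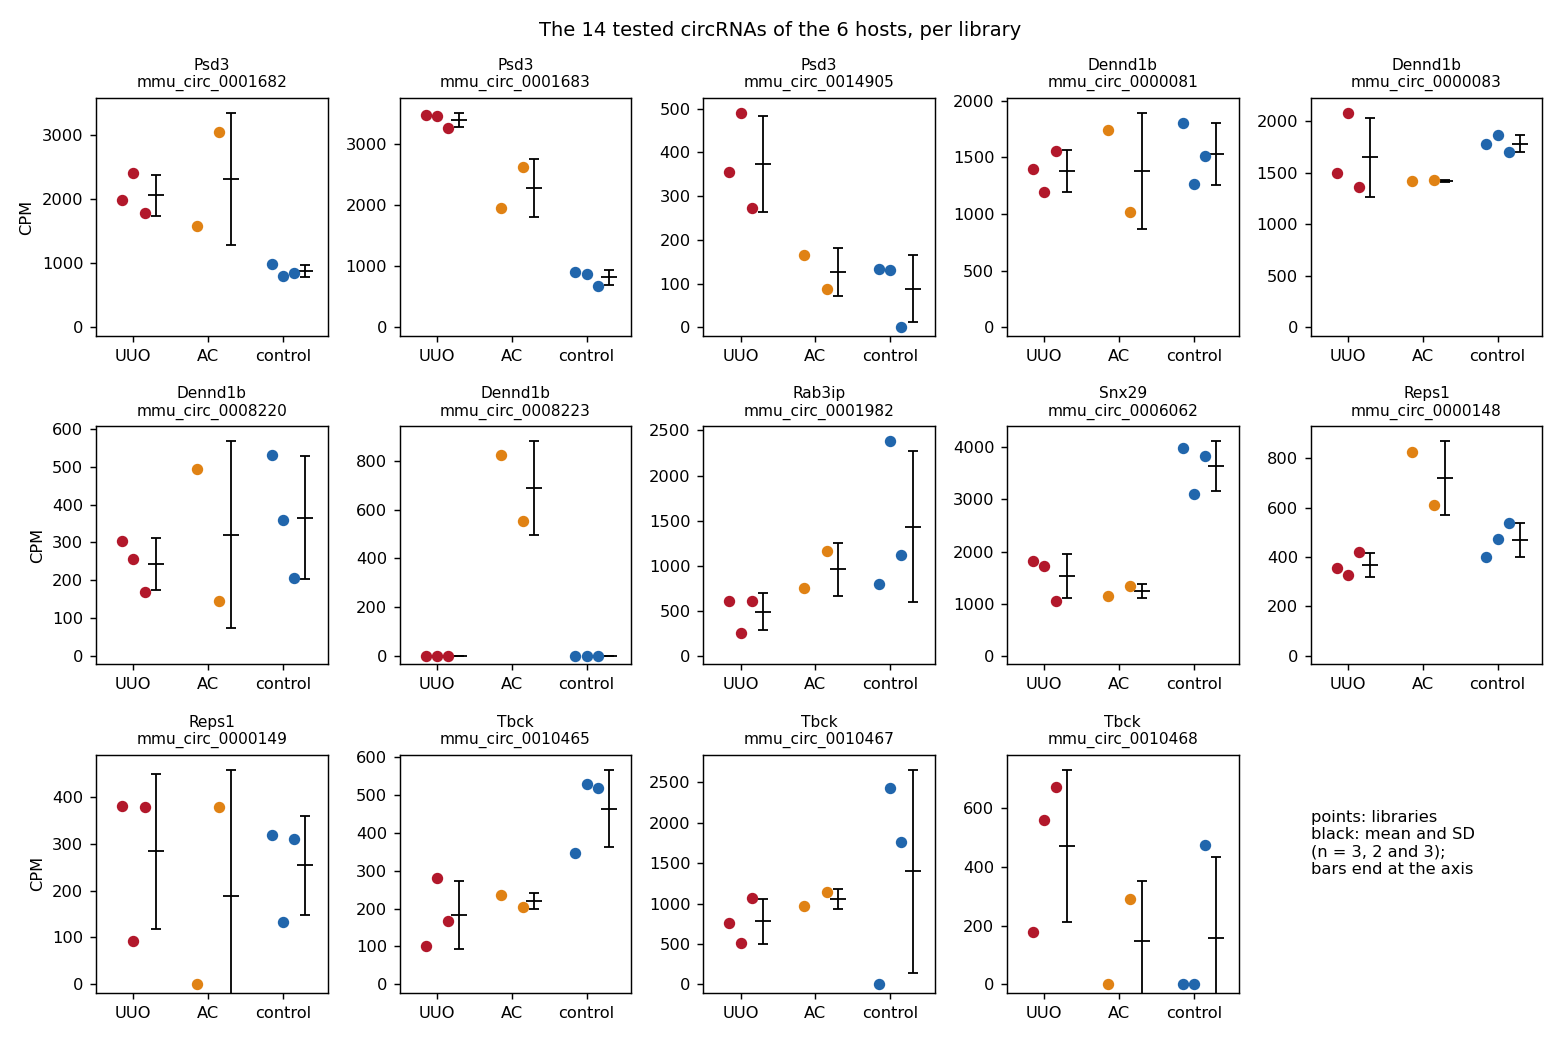
CPM of each of the 14 tested circRNAs in the 8 libraries, 1 panel per circRNA with its own linear axis; points are libraries of UUO, AC and control, and black marks give mean and SD. In Psd3 mmu_circ_0001683 the UUO libraries sit between 3275 and 3477 CPM and the control libraries between 682 and 904 CPM, and Dennd1b mmu_circ_0008223 has counts in the 2 AC libraries alone.

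The ratio of these 2 Psd3 loops is given as a description and was not tested, since the hosts were chosen on such differences between isoforms. The ratio of mmu_circ_0001683 to mmu_circ_0001682 was 1.76, 1.44 and 1.84 in the UUO libraries, 1.24 and 0.865 in the AC libraries, and 0.919, 1.10 and 0.805 in the controls. Every UUO library lay above every AC and control library, and the AC and control libraries overlapped. As a share of all Psd3 counts, mmu_circ_0001683 made up 55.6% ± 3.66 in UUO (SD, n = 3), 48.4% ± 6.34 in AC (SD, n = 2) and 45.5% ± 2.55 in control (SD, n = 3). For mmu_circ_0001682 these shares were 33.4% ± 2.78 in UUO, 46.7% ± 5.70 in AC and 49.02% ± 5.76 in control. CircBase lists the 2 loops under different source transcripts. In the GENCODE M21 annotation (GRCm38, a build other than the authors' mm9) that of mmu_circ_0001683 has 13 exons and 1739 bases, and that of mmu_circ_0001682 has 15 exons and 11316 bases. The sources used here do not say how reads shared by loops of 1 host were counted.

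**Figure D2:**
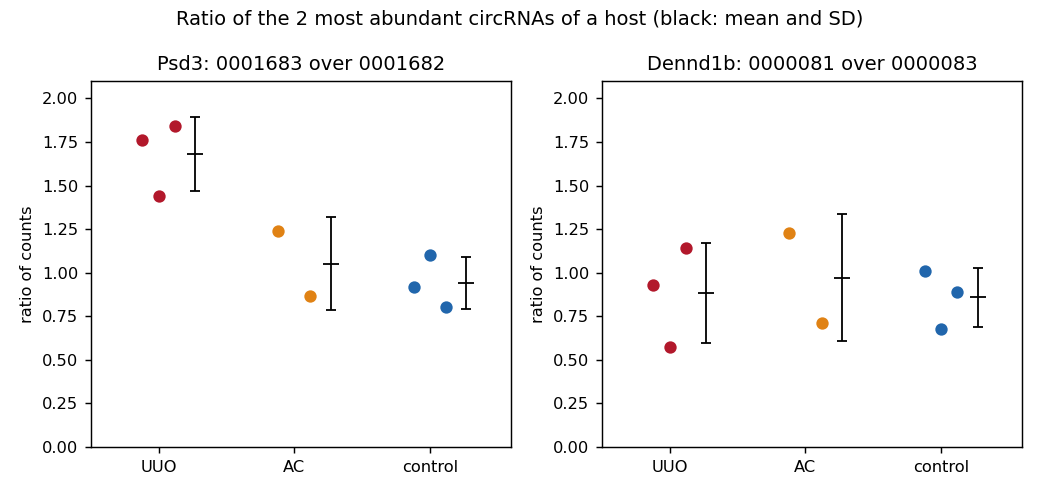
Ratio of the counts of the 2 most abundant circRNAs of Psd3 (left) and of Dennd1b (right) in each library of UUO, AC and control; points are libraries and black marks give mean and SD. The Psd3 ratio is at 1.44 or above in the 3 UUO libraries and at 1.24 or below in the other 5, while the Dennd1b ratios of the 3 groups overlap.

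Whether a loop changed apart from its host was measured as its departure, the log2 fold change of a circRNA minus the change common to the tested circRNAs of its host. The fit covered 705 circRNAs of 268 hosts with at least 2 tested loops. In UUO against control 0 of the 12 such loops of the 6 hosts departed at an adjusted p under 0.05, and 0.0% of all 705 did. At an unadjusted p under 0.05 there were 0 of the 12 and 13 of the 705, and limma-voom also called 0 of the 12. For Psd3 in UUO the departures were 0.34 for mmu_circ_0001683 (adjusted p = 0.999) and -0.48 for mmu_circ_0001682 (adjusted p = 0.999). The hosts had been described as genes with isoform-specific changes, and in this fit no departure of a Psd3, Reps1 or Tbck loop passed in any of the 3 comparisons. The single departure that did pass, of a Dennd1b loop, was among the values that chose the hosts and supports nothing. Rab3ip and Snx29 had 1 tested loop each and could not be fitted. Of the 268 hosts, 4 had 2 or more called loops in UUO and 4 in AC, and so could have shown calls in both directions, and 0 of them did in either comparison.

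The other tested Psd3 loop, mmu_circ_0014905, was scarce, with counts of 14, 21 and 13 in UUO, 7 and 3 in AC, and 5, 7 and 0 in control. UUO libraries lay above the others in CPM, and its log2 fold change in UUO of 2.06 had an SE of 0.89 and did not pass (edgeR adjusted p = 0.249). Its log2 fold change in AC was 0.53 with an SE of 1.03 (adjusted p = 0.87). Of the untested Psd3 rows, mmu_circ_0001684 had counts of 0, 6 and 15 in UUO, 0 and 8 in AC, and 2, 0 and 0 in control. The remaining 3 Psd3 rows had counts in UUO libraries alone, of 7 or fewer in any library. Over all 6 hosts the 14 untested rows had totals of 3 to 52 over the 8 libraries, with a median of 14.

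Dennd1b had the most rows of the 6 hosts and a summed count that did not pass in either injury. The sum averaged 3032 ± 147 CPM in UUO (SD, n = 3), 3561 ± 928 CPM in AC (SD, n = 2) and 3669 ± 240 CPM in control (SD, n = 3). Its log2 fold change was -0.27 with an SE of 0.20 in UUO (edgeR adjusted p = 0.502) and -0.04 with an SE of 0.23 in AC (adjusted p = 0.965). The UUO sums (2931 to 3200 CPM) lay below the control sums (3474 to 3936 CPM), and the AC sums overlapped with both. Within that sum, mmu_circ_0008223 had counts of 0, 0 and 0 in UUO, 35 and 19 in AC, and 0, 0 and 0 in control. It was the only 1 of 1471 tested circRNAs with 0 counts in every library outside AC, a feature looked at after its values had been seen.

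The AC level of mmu_circ_0008223 was 689 ± 191 CPM (SD, n = 2), and the loop made up 17.6% ± 0.65 of all Dennd1b counts in AC (SD, n = 2). Set against 3 counts over a whole group, UUO lay at least 29.8-fold below AC, and AC lay at least 31.9-fold above control. With AC replicate 2 as the only AC library, they dropped to 24.0-fold and 25.7-fold. These bounds cover counting error of the groups at 0 alone. In AC against control DESeq2 gave the loop no adjusted p and did not call it, and limma-voom did (adjusted p = 0.0343). The loop passed there in edgeR as well (edgeR adjusted p = 0.0214). That call was lost without AC replicate 1 (adjusted p = 0.274), AC replicate 2 (adjusted p = 0.0787) or control replicate 3 (adjusted p = 0.0558). In UUO against AC it did not pass over all circRNAs in edgeR (adjusted p = 0.158), limma-voom (adjusted p = 0.507) or DESeq2 (adjusted p = 0.857). It did pass in an edgeR fit of those 5 libraries alone (adjusted p = 0.00764) and with no filter on low counts (adjusted p = 0.000337).

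As a departure from its host, mmu_circ_0008223 passed in AC against control (fitted departure 7.85, edgeR adjusted p = 0.000426). It was the only 1 of 705 loops to do so, or 0.142%. It also passed in UUO against AC (departure -7.68, adjusted p = 0.000764), again 0.142% of 705. With a group at 0 counts the size of these fitted values depends on the prior count, so they give a direction and no fold. Without AC replicate 1, where AC holds a single library, and in limma-voom the departure did not pass in either comparison.

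The abundant Dennd1b loops did not pass in either injury. Loop mmu_circ_0000081 had counts of 55, 51 and 74 in UUO, 74 and 35 in AC, and 68, 67 and 73 in control. Loop mmu_circ_0000083 had counts of 59, 89 and 65 in UUO, 60 and 49 in AC, and 67, 99 and 82 in control. Their CPM ranges overlapped between UUO and control, and for mmu_circ_0000083 the AC libraries (1414 and 1429 CPM) lay below the control libraries (1695 to 1868 CPM). Log2 fold changes were -0.14 (SE 0.28) and -0.11 (SE 0.25) in UUO, and -0.13 (SE 0.32) and -0.33 (SE 0.29) in AC, with edgeR adjusted p of 0.702 or above. Loop mmu_circ_0008220, listed under the same source transcript as mmu_circ_0008223 (22 exons and 8206 bases in GENCODE M21), had counts of 12, 11 and 8 in UUO, 21 and 5 in AC, and 20, 19 and 10 in control. Its log2 fold changes of -0.58 (SE 0.59) in UUO and -0.15 (SE 0.65) in AC did not pass. The ratio of mmu_circ_0000081 to mmu_circ_0000083 was 0.882 ± 0.287 in UUO (SD, n = 3), 0.972 ± 0.365 in AC (SD, n = 2) and 0.859 ± 0.169 in control (SD, n = 3). Of the 5 untested Dennd1b rows, mmu_circ_0008218 had counts of 0, 0 and 9 in UUO, 2 and 0 in AC, and 6, 6 and 0 in control, and the others had at most 11 in any library.

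**Figure D3:**
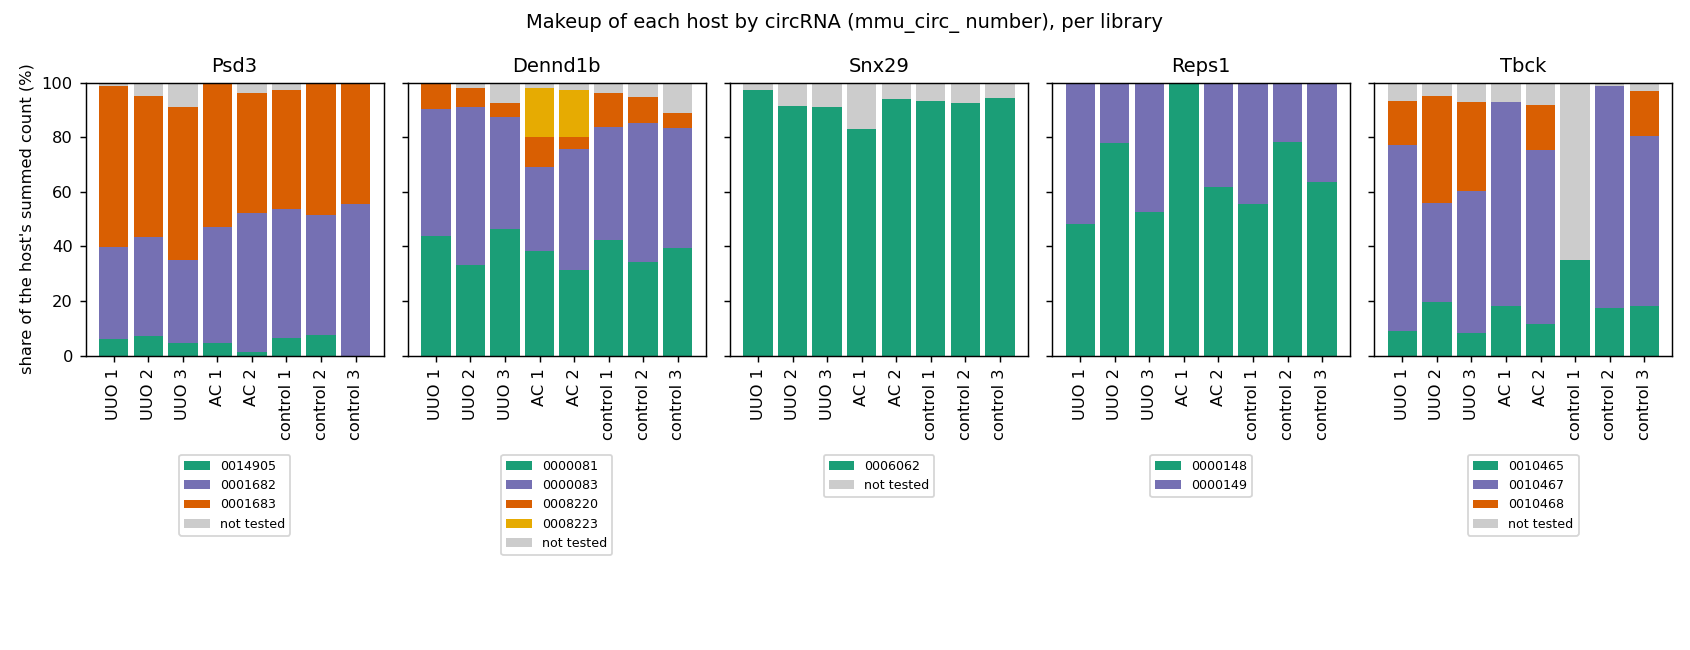
Share of the host's summed count (percent, linear axis) held by each tested circRNA, with untested rows in grey, for Psd3, Dennd1b, Snx29, Reps1 and Tbck in UUO, AC and control libraries; Rab3ip has 1 row and is not drawn. The yellow Dennd1b band of mmu_circ_0008223 is present in the 2 AC libraries alone, and control replicate 1 stands apart in Tbck.

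Rab3ip was listed with 1 loop, mmu_circ_0001982. It had counts of 24, 11 and 29 in UUO, 32 and 40 in AC, and 30, 126 and 54 in control. UUO libraries lay below all others in CPM, and control replicate 2, at 2378 CPM, was well above the other 2 controls at 798 and 1116 CPM. The loop averaged 492 ± 203 CPM in UUO (SD, n = 3), 960 ± 292 CPM in AC (SD, n = 2) and 1431 ± 836 CPM in control (SD, n = 3). Its log2 fold change in UUO was -1.55 with an SE of 0.43, just short of the threshold (edgeR adjusted p = 0.0515). In the separate fit on host sums the same counts passed (-1.61, SE 0.42, edgeR adjusted p = 0.0244). That host-sum call was lost in 5 of 8 fits without a library: without any of UUO replicates 1 to 3, control replicate 2 or control replicate 3. For the loop itself the log2 fold change without control replicate 2 was -0.98 (adjusted p = 0.244). In AC the log2 fold change was -0.60 with an SE of 0.47 (adjusted p = 0.651). The difference between UUO and AC did not pass either (-0.95, SE 0.49, edgeR adjusted p = 0.857). Having a single row, Rab3ip cannot show a change of 1 loop against another.

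Snx29 fell in both injuries, almost all of it in 1 loop. Loop mmu_circ_0006062 had counts of 72, 74 and 50 in UUO, 49 and 46 in AC, and 150, 164 and 185 in control. Every injured library lay below every control library, and the UUO and AC libraries overlapped. It averaged 1535 ± 423 CPM in UUO (SD, n = 3), 1248 ± 133 CPM in AC (SD, n = 2) and 3636 ± 476 CPM in control (SD, n = 3). It was 2.37-fold lower in UUO than in control (log2 fold change -1.25, SE 0.25, edgeR adjusted p = 0.0132) and 2.91-fold lower in AC than in control (-1.54, SE 0.30, adjusted p = 0.0114). The UUO call was lost without UUO replicate 2 (adjusted p = 0.062) or UUO replicate 3 (adjusted p = 0.0768), and the AC call without AC replicate 1 (adjusted p = 0.0988) or AC replicate 2 (adjusted p = 0.0521).

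Its share of the Snx29 counts was 93.2% ± 3.57 in UUO (SD, n = 3), 88.5% ± 7.66 in AC (SD, n = 2) and 93.4% ± 0.89 in control (SD, n = 3). The fall of this loop was thus a fall of the host's summed circRNAs, 2.46-fold in UUO (log2 fold change -1.30, SE 0.25, edgeR adjusted p = 0.0029) and 2.82-fold in AC (-1.50, SE 0.29, adjusted p = 0.00412). The AC call of the sum was lost without AC replicate 1. Of the untested Snx29 rows, mmu_circ_0000661 had counts of 2, 6 and 5 in UUO, 7 and 3 in AC, and 11, 9 and 9 in control, and the other row had at most 4 in any library.

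Reps1 had 2 loops, and neither passed in any comparison. Loop mmu_circ_0000148 had counts of 14, 14 and 20 in UUO, 35 and 21 in AC, and 15, 25 and 26 in control. In CPM the AC libraries (613 and 825) lay above all others, and the UUO libraries (327 to 420) overlapped with control (399 to 538). Its log2 fold change was -0.35 (SE 0.39, edgeR adjusted p = 0.728) in UUO and 0.61 (SE 0.42, adjusted p = 0.588) in AC. In UUO against AC it was -0.96 (SE 0.42, adjusted p = 0.816). Loop mmu_circ_0000149 had counts of 15, 4 and 18 in UUO, 0 and 13 in AC, and 12, 7 and 15 in control, so its 2 AC libraries, at 0 and 379 CPM, overlapped with both other groups. The share of mmu_circ_0000148 in Reps1 counts was 59.6% ± 15.9 in UUO (SD, n = 3), 80.9% ± 27.04 in AC (SD, n = 2) and 65.7% ± 11.5 in control (SD, n = 3). The libraries of these groups overlapped in this share.

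Tbck counts were uneven between control libraries. Its main loop, mmu_circ_0010467, had counts of 30, 22 and 51 in UUO, 41 and 39 in AC, and 0, 129 and 85 in control. Control replicate 1 was at 0, and the other 2 controls lay above all injured libraries. With all libraries the log2 fold change was -0.86 with an SE of 0.69 in UUO (edgeR adjusted p = 0.605) and -0.44 with an SE of 0.78 in AC (adjusted p = 0.862). Without control replicate 1 it was -1.41 in UUO and passed (adjusted p = 0.0328). The same library held 24 of its 37 Tbck counts in the 3 untested rows, against 2 to 7 counts of those rows in each other library. Of these rows, mmu_circ_0010463 had counts of 3, 0 and 2 in UUO, 2 and 3 in AC, and 10, 0 and 0 in control.

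Loop mmu_circ_0010465 had counts of 4, 12 and 8 in UUO, 10 and 7 in AC, and 13, 28 and 25 in control. Its injured libraries lay below the 3 controls in CPM, and it did not pass in UUO (log2 fold change -1.33, SE 0.54, edgeR adjusted p = 0.214) or in AC (-1.07, SE 0.62, adjusted p = 0.495). Loop mmu_circ_0010468 had counts of 7, 24 and 32 in UUO, 0 and 10 in AC, and 0, 0 and 23 in control. Its log2 fold change in UUO was 1.53 with an SE of 1.10 (adjusted p = 0.552), and its departure from its host in UUO was 2.04 (adjusted p = 0.999). As a share of Tbck counts mmu_circ_0010468 stood at 29.3% ± 12.1 in UUO (SD, n = 3), 8.20% ± 11.6 in AC (SD, n = 2) and 5.60% ± 9.69 in control (SD, n = 3). Summed over all 6 rows, the Tbck log2 fold change was -0.64 (SE 0.34, adjusted p = 0.32) in UUO and -0.62 (SE 0.39, adjusted p = 0.474) in AC.

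**Figure D4:**
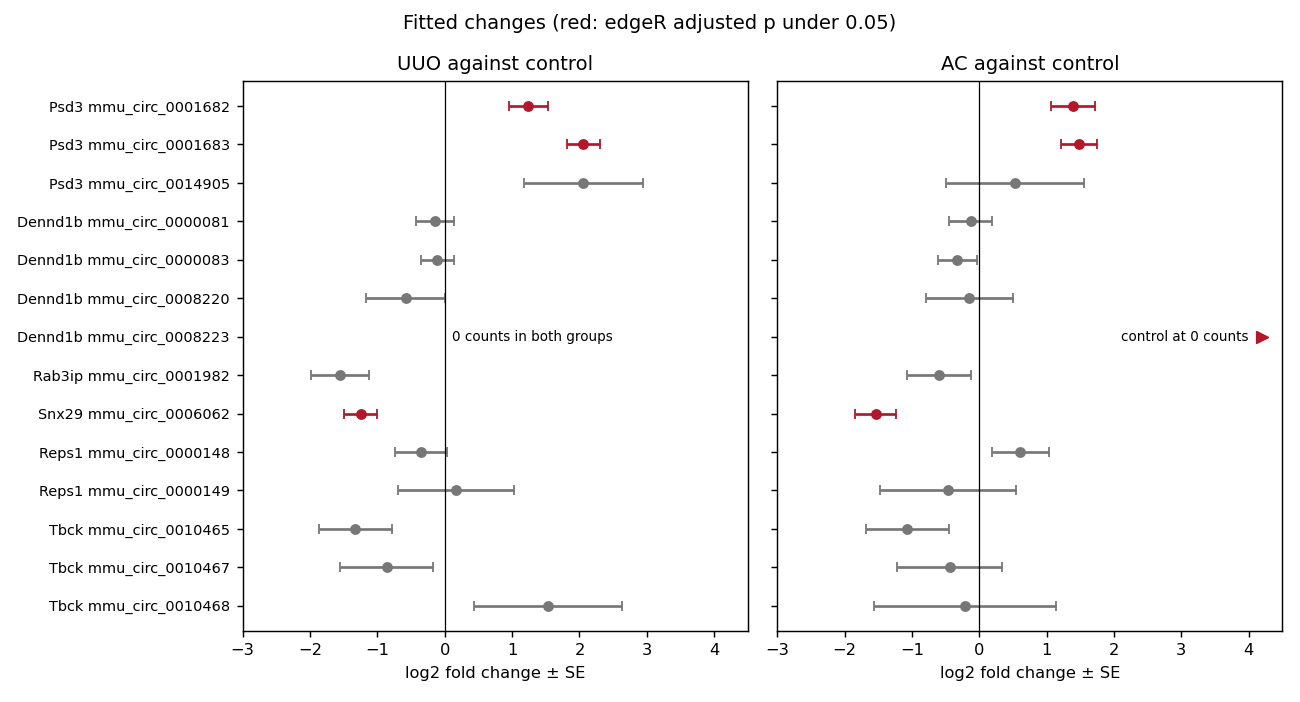
Log2 fold change with its standard error from the edgeR fit for the 14 tested circRNAs, UUO against control on the left and AC against control on the right; red marks an adjusted p under 0.05. Both abundant Psd3 loops lie right of 0 and Snx29 mmu_circ_0006062 lies left of 0 in both panels; the arrow stands for Dennd1b mmu_circ_0008223, for which the control group has 0 counts and no fold is drawn.

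For each loop that passed, likeness to circRNAs of other hosts was taken as the root mean square difference in log2 CPM over the 8 libraries after centring each circRNA on its mean. Nearest to Psd3 mmu_circ_0001682 were loops of Apbb2 (mmu_circ_0012733, difference 0.22) and Smad1 (mmu_circ_0001699, difference 0.23). Nearest to Psd3 mmu_circ_0001683 were loops of Aff3 (mmu_circ_0008717) and Vav3 (mmu_circ_0010364), both at 0.35. Nearest to Snx29 mmu_circ_0006062 were loops of Tdrd3 (mmu_circ_0000561, 0.19) and 1300001I01Rik (mmu_circ_0000287, 0.22). Nothing came as near to Dennd1b mmu_circ_0008223: the nearest loops, of Senp1 (mmu_circ_0000649, 1.0) and Mvp (mmu_circ_0013888, 1.02), had counts in every library.

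Related hosts from lists of the same pathways gave no further calls in edgeR. Over the 5 lists together, 40 loops of 24 other hosts were tested. At an unadjusted p under 0.05 there were 3 of them in UUO against control, where 228 of all 1471 tested circRNAs were, and 5 in AC against control, where 207 of 1471 were. DESeq2 called 1 in each comparison and limma-voom 0. Among Arf exchange factors, 3 tested loops of 2 hosts other than Psd3 gave 0 calls in UUO and 0 in AC, with log2 fold changes between -1.13 and 0.07 in UUO. Among DENN-domain and other Rab exchange factors, 7 tested loops of 4 hosts other than Dennd1b and Rab3ip gave 0 calls, with values between -2.89 and 1.31 in UUO. Among sorting nexins, 10 tested loops of 7 hosts other than Snx29 gave 0 calls, with a median of 0.10 in UUO and -0.33 in AC. Among EH-domain and Ral adaptors of endocytosis, 7 tested loops of 5 hosts other than Reps1 gave 0 calls, with medians of -0.01 in UUO and 0.25 in AC. Among TBC-domain proteins, 13 tested loops of 6 hosts other than Tbck gave 0 calls, of which 10 had a negative value in UUO and 10 in AC, with medians of -0.62 and -0.24. The median of all tested circRNAs was 0.016 in UUO and -0.015 in AC.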

How the data were processed

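Per the file headers, the authors deposited a table of whole-number counts per circBase circRNA and library, without normalization. A second deposited table holds a signal in which, as its values show, each count is divided by 1 constant per library, between 8718 and 11941. The tools HISAT2 and StringTie and the build mm9 are named, without a role, per the submitters' processing notes. The circular junction caller was not given in the sources used here. Counts of all 8 libraries were fitted in 1 model of 3 groups with edgeR 4.0.16 (R 4.3.3), TMM factors and the quasi-likelihood test. Filtering with filterByExpr (minimum count 10, minimum total 15) left 1471 circRNAs (23.3%) of 1016 hosts. P-values were adjusted by Benjamini-Hochberg over all tested features, with a threshold of 0.05. Standard errors were obtained as the size of the log2 fold change divided by the root of the F statistic. CPM are scaled to the tested totals with TMM factors. Departures came from diffSpliceDGE on the same fit, and host sums from a separate fit of 1185 hosts. Scripts were tested on simulated data. Bounds and floors used 3 counts over a group and cover counting error only. All rows of the 6 hosts are accounted for, rows past the filter and those with a total of at least 20 by name. For each called loop the nearest 2 circRNAs of other hosts are named. The members, lists and tests were chosen with earlier results of these data known. Alternatives were DESeq2 1.42.0, limma-voom (limma 3.58.1), other scalings, no filter, 2-group fits, a replicate block and leaving out each library.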

Additional observations from a re-analysis of the deposited data

Results flagged for a closer look

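A pair of results on the 6 hosts was flagged, after the values had been seen, for unlike values in UUO and AC libraries. The departure of Dennd1b mmu_circ_0008223 from its host was -7.68 on the log2 scale in UUO against AC (edgeR adjusted p = 0.000764). The loop had counts in 2 of 2 AC libraries and in 0 of 3 UUO libraries. It passed the filter only through AC, its values were among those that chose the hosts, and its departure did not pass in limma-voom. Reps1 mmu_circ_0000148 lay below the control mean of 469 CPM in 3 of 3 UUO libraries and above it in 2 of 2 AC libraries. Its UUO libraries (327 to 420 CPM) overlapped with control (399 to 538 CPM). How many of all tested circRNAs show such a pattern was not counted. The difference between UUO and AC was tested in the edgeR fit and did not pass (log2 fold change -0.96, adjusted p = 0.816).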

How the results depend on the processing

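The call of Psd3 mmu_circ_0001683 in UUO held in 8 of 8 fits without a library and in 7 of 7 other alternatives. With the constant between the deposited tables as library size, the median log2 fold change of all circRNAs moved to -0.259 in UUO and -0.335 in AC, against 0.016 and -0.015. The number of circRNAs called was then 37 in UUO (11 higher, 26 lower), against 64 (42 higher, 22 lower), and 29 in AC (7 higher, 22 lower), against 49 (28 higher, 21 lower). Loops of the 6 hosts called in AC numbered 2 instead of 4, and host sums called in AC 1 instead of 2. The AC calls lost were those of Psd3 mmu_circ_0001683 (edgeR adjusted p = 0.087), Psd3 mmu_circ_0001682 (adjusted p = 0.141) and the Psd3 sum. The UUO call of mmu_circ_0001682 was lost as well (adjusted p = 0.122). DESeq2 called 103 circRNAs in UUO against control and 2 in UUO against AC. In fits of the 2 compared groups alone, 14 circRNAs and 2 loops of the 6 hosts passed in AC against control. Psd3 mmu_circ_0001683 (edgeR adjusted p = 0.0623) and mmu_circ_0001682 (adjusted p = 0.101) did not pass there. With such fits 1 circRNA, Dennd1b mmu_circ_0008223, passed in UUO against AC. With no filter on low counts 4 circRNAs and 1 loop of the 6 hosts passed in UUO against AC. In limma-voom 0 departures passed in AC against control and 0 in UUO against AC. The Rab3ip loop in UUO had an adjusted p of 0.00804 in DESeq2 and 0.0302 in limma-voom. In edgeR it was 0.0482 with DESeq2 size factors, 0.0364 with the constant as library size and 0.00325 with no filter. The edgeR value was 0.0638 in the fit of 2 groups and 0.203 with the block, and between 0.0328 and 0.244 without 1 library.

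Leaving out 1 library at a time gave 10 to 75 circRNAs called in UUO against control, 11 to 38 in AC against control and 0 to 1 in UUO against AC. For loops of the 6 hosts it gave 1 to 5 in UUO, 0 to 4 in AC, and 0 to 1 departures in AC against control and in UUO against AC. For host sums it gave 2 to 4 in UUO and 1 to 2 in AC. The lowest count of all circRNAs, 10 in UUO against control, came without UUO replicate 2.

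Deviations of same-numbered libraries from their group means had r between -0.113 and 0.0417. With only 2 or 3 libraries in a group, such values cannot tell whether the numbers pair the libraries. With a replicate block, 12 circRNAs passed in UUO and 5 in AC, and 1 and 0 of the 14 loops. The host sum of Rab3ip in UUO also did not pass with the block.

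No value that passed in a comparison changed sign in it. Among values that did not pass, that of Reps1 mmu_circ_0000149 turned to -0.06 in UUO by the constant. Without 1 library it ranged from -0.16 to 0.60 in UUO and from -6.50 to 0.54 in AC. Tbck mmu_circ_0010467 turned to 0.58 in UUO and 1.04 in AC in limma-voom, and in AC to 0.18 with the block, with a range of -1.0 to 0.20 without 1 library. Tbck mmu_circ_0010468 turned in AC to 0.36 in limma-voom and 1.53 with the block, with a range of -5.88 to 5.57. In AC without 1 library, Psd3 mmu_circ_0014905 ranged from -0.10 to 1.02, Dennd1b mmu_circ_0000081 from -0.62 to 0.17 and mmu_circ_0008220 from -1.34 to 0.42. Psd3 mmu_circ_0001682 in UUO against AC ranged from -0.56 to 0.40. The cause of these shifts was not tested. At these depths 1 count of a loop was worth between 18.9 and 29.2 CPM.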

Other observations

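Zero counts in otherwise well covered loops were rare, by limits chosen after the values were seen. Among 1471 tested circRNAs, 1 had 0 counts in a single library and 20 or more in each of the other 7 for control replicate 1 (Tbck mmu_circ_0010467) and 1 for AC replicate 2 (mmu_circ_0000983 of Mllt10), with 0 for each other library. Tested loops seen in control libraries alone numbered 2, of Aff4 (mmu_circ_0000261) and Ndfip1 (mmu_circ_0007321), and neither had 10 or more counts in each control library. Tested loops seen in UUO libraries alone numbered 0.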
